A study of Arabidopsis thaliana with 4 samples.

Results

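The regions described here are the Pol V peak summits that lay in short gaps between neighbouring genes, ahead of the start of one gene and behind the end of another. A summit was taken when it was outside every annotated gene and pseudogene, at most 1000 bp upstream of the start of a protein-coding gene and at most 1000 bp downstream of the end of another. Of the 11478 summits in the deposited list, 755 met this rule, a share of 6.58% (95% Wilson interval 6.14 to 7.05%). The intervals given here cover counting error only.

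The study concerned DRD1, DMS3 and RDM1, the proteins that make up the DDR complex of Arabidopsis thaliana. Its series holds 4 anti-FLAG ChIP-seq libraries from untreated, soil-grown inflorescences, 1 each from untransformed Col-0 and from plants with FLAG-tagged DRD1, DMS3 or RDM1. The signals of these libraries were not analysed here. The summit list came instead from published Pol V ChIP-seq reads and their no-antibody control, in 1 peak call without replicates, so no difference between summits could be tested against replicate error.

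RNA polymerase V is a plant-specific enzyme that transcribes non-coding RNA at the targets of RNA-directed DNA methylation (RdDM). Small interfering RNAs bound to Argonaute proteins pair with these transcripts, and the methyltransferase DRM2 then methylates cytosines in CG, CHG and CHH contexts, where H is any base but G. The pathway is known for silencing transposons and repeats, many of them short remnants that lie next to genes. Where neighbouring genes point the same way, in tandem, the sequence between them holds the region beyond the end of the first gene and the promoter of the second.

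The sequences of 5 of the highest-scoring summits are shown first, since they give the bases at the strongest peaks and the range of CG content among them. Each is the 151 bp centred on the summit, read from the RefSeq genome TAIR10.1 along the strand of both genes, 5′ to 3′, so that the gene behind lies to the left and the gene ahead to the right. Capitals mark CG sites, the context in which methylation is symmetrical on both strands. The positions, in the same order, are chr1:20734161-20734311 (minus strand), chr5:3738395-3738545 (minus), chr3:4494177-4494327 (minus), chr1:17874018-17874168 (plus) and chr3:19298820-19298970 (plus). All 5 lie outside annotated genes, exons and introns.
LNO1/AT1G55535: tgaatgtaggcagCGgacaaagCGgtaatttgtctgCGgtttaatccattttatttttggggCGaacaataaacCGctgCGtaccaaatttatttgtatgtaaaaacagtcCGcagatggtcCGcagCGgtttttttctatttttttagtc
AT5G11620/AT5G11610: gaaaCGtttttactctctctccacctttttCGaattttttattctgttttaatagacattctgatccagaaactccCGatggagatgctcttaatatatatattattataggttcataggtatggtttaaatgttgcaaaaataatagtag
PRA8/PRA1.F4: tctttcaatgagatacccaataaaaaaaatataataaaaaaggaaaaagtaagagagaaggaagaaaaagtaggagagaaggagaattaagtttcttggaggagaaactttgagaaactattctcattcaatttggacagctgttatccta
AT1G48360/YSL8: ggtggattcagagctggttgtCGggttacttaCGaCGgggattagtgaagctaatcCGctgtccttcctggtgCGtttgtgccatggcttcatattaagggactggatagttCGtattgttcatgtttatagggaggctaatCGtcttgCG
scpl37/scpl39: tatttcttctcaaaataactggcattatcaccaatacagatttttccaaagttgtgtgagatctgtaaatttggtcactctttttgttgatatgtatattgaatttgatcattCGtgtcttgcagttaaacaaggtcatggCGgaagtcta

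The number of CG sites in these windows ran from 0 beside PRA8 to 9 beside LNO1. The window ahead of YSL8 was the richest in G and C, at 48.3%, and the window ahead of AT5G11610 the poorest, at 29.8%. A high peak score thus occurred in windows with many CG sites and in windows with none.

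The strongest summits lay beside genes of many kinds. The highest score, 1396, which ranked 13 in the whole list, was that of the summit at position 20734236 of chromosome 1. It lay 210 bp behind the end of LNO1 (AT1G55540), which encodes a nuclear pore protein, and 170 bp ahead of the start of AT1G55535, an uncharacterized gene. Another, with a score of 1272, lay between AT5G11620, a SWIM zinc finger gene 259 bp away, and AT5G11610, an exostosin family gene 240 bp away. Both gaps were short, at 379 and 498 bp.

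The summit with a score of 1196 lay between PRA8 and PRA1.F4, tandem genes of prenylated Rab acceptors, which act in vesicle traffic. Their proteins were alike, with 80.3% identity over the whole of the shorter one. The summit with a score of 1171 lay 343 bp ahead of YSL8, of a family that carries metal complexes across membranes, and 832 bp behind AT1G48360. Its GC content within 250 bp, 46.1%, was the highest of all 755 summits.

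The summit with a score of 1164 lay between scpl37 and scpl39, serine carboxypeptidase-like genes, 724 bp behind the former and 414 bp ahead of the latter. The shortest gaps of these high scores leave no position far from a gene. The summit with a score of 1145 lay 58 bp behind AT1G24485 and 243 bp ahead of ALB4, which encodes a protein that inserts others into chloroplast membranes. The one with a score of 1024 lay 15 bp ahead of CSDP1, a gene of a cold shock domain protein that binds RNA, and 261 bp behind ARO3, an armadillo repeat gene.

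The other 4 of the 11 high-scoring summits described here had scores from 1018 to 1076. They lay between AT4G20970, a bHLH gene, and AT4G20980, a gene of a translation initiation factor 3 subunit (1076), and between AT5G58840, a subtilase gene, and MYB119, a MYB transcription factor (1055). The others lay between CAT3, a cationic amino acid transporter, and DEG10, a DegP protease (1054), and between AT5G54820 and AT5G54830 (1018). All 11 lay between genes on the same strand with no other gene between, and in all 11 every 50-base sequence within 250 bp of the summit occurred only once in the genome. Such unique sequence was common to the 755 summits, whose median share was 100% and lower quartile 99.8%.

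**Figure D1:**
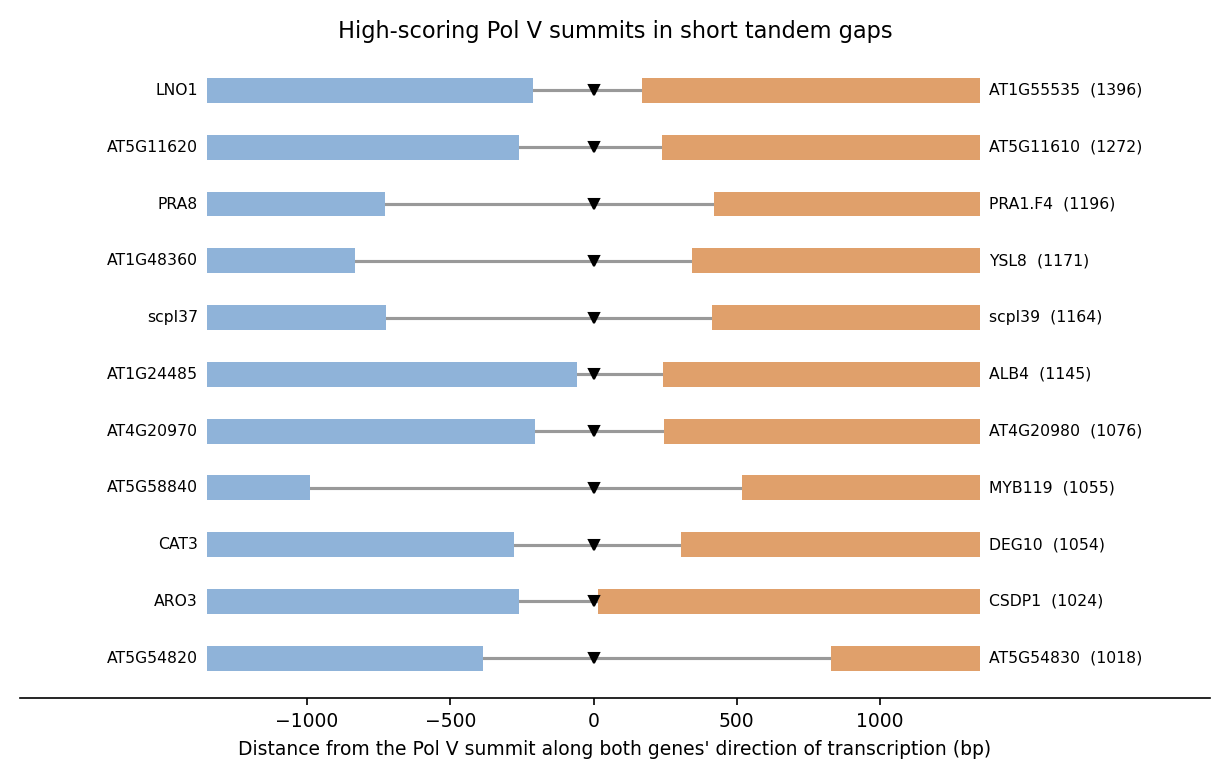
Map of the gaps around 11 of the summits with the highest scores, each centred on the summit (triangle), with distance in bp along the direction of both genes. Blue bars are the gene behind, orange bars the gene ahead, both cut at the frame, grey lines the gap, and the value in brackets the peak score, from 1018 to 1396.

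The name of tandem gaps held for most of the summits but not for all. Of the 755, 645 (85.4%) lay between protein-coding genes on the same strand with no other annotated gene between them. A further 57 (7.55%) had such a pair of genes with another gene in between, most often a long non-coding RNA gene (24), a further protein-coding gene (12) or a tRNA gene (11). The remaining 53 (7.02%) met the rule without such a pair, because the gene whose start lay near and the gene whose end lay near were on opposite strands or on the same side. The gene ahead was on the plus strand at 375 summits and on the minus strand at 380, so neither strand was favoured. A gap is taken here as the whole run of bases outside annotated genes that holds the summit.

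Pol V summits were denser in these gaps than over the genome, but not as dense as in other sequence beside genes. The bases that met the same rule, called eligible here, came to 4609135, which is 3.87% of the determined bases of the 5 chromosomes, and they held 163.8 summits per Mb (95% exact Poisson interval 152.3 to 175.9). The whole genome had 96.5 per Mb and annotated genes and pseudogenes 44.8. Sequence within 1000 bp upstream of a gene but not downstream of another had 221.7 per Mb (213.1 to 230.6), with 2485 summits, and sequence downstream only had 212.3 (201.5 to 223.5), with 1458. Sequence over 1000 bp from gene starts and ends had 168.9 (163.2 to 174.7). The interval of the tandem gaps thus overlapped that of the distant sequence and lay below both classes beside genes. These densities were not corrected for mappability, and the authors kept only reads that map to 1 place. Of the 50-base sequences in the distant sequence, 85.6% occurred only once in the genome, against 97.6% in the eligible bases. The overlap with the distant sequence may therefore not hold per mappable base, which was not tested.

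Most tandem gaps had no summit, and which gaps had one varied with their length. Of 11516 gaps with eligible bases, 736 held a summit, the 6.39% against which counts of gaps are read here, and 19 of these held 2. Not all 11516 were tandem in the strict sense. Those between a tandem pair with no other gene between came to 9354, of which 629 held a summit (6.72%, 6.23 to 7.25%). Gaps with a summit had a median length of 1003 bp (quartiles 686.75 and 1264.25) and gaps without one a median of 430 bp (160 and 920). The shortest gap with a summit, 48 bp long, lay between SLD5, a gene of a DNA replication protein, and AT5G49015, an uncharacterized gene, with a score of 115. The longest between a tandem pair with nothing in between had 1933 bp, with a summit of score 679 near its middle, 959 bp behind AT2G23960 and 975 bp ahead of AT2G23970. Both genes encode class I glutamine amidotransferase-like proteins. The longest of all, 8294 bp, was between AT5G25200 and AT5G25195, which are not a tandem pair.

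The share of gaps with a summit was 0.446% (Wilson interval 0.278 to 0.713%) for gaps up to 250 bp and 3.45% (2.76 to 4.30%) from 251 to 500 bp. It was 7.88% (6.65 to 9.31%) from 501 to 750 bp, 12.9% (11.1 to 14.9%) from 751 to 1000 bp and 18.7% (16.3 to 21.3%) from 1001 to 1250 bp. In still longer gaps it went down to 3.96% at 1751 to 2000 bp, where only the middle of a gap can meet the rule on both sides. In the 283 gaps above 2000 bp it was 10.2% (7.23 to 14.3%). Length alone gives more room for a summit, so the counts were also set against the eligible bases. Per Mb of these, there were 40.5 summits (23.6 to 64.9) in gaps up to 250 bp, 98.4 (77.4 to 123.4) from 251 to 500 bp and 166.4 (141.2 to 194.9) from 751 to 1000 bp. Gaps from 1001 to 1250 bp had 239.6 (206.2 to 276.8). The lower density in short gaps was thus larger than counting error, and the gaps over 1000 bp were about as dense as upstream-only sequence.

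**Figure D2:**
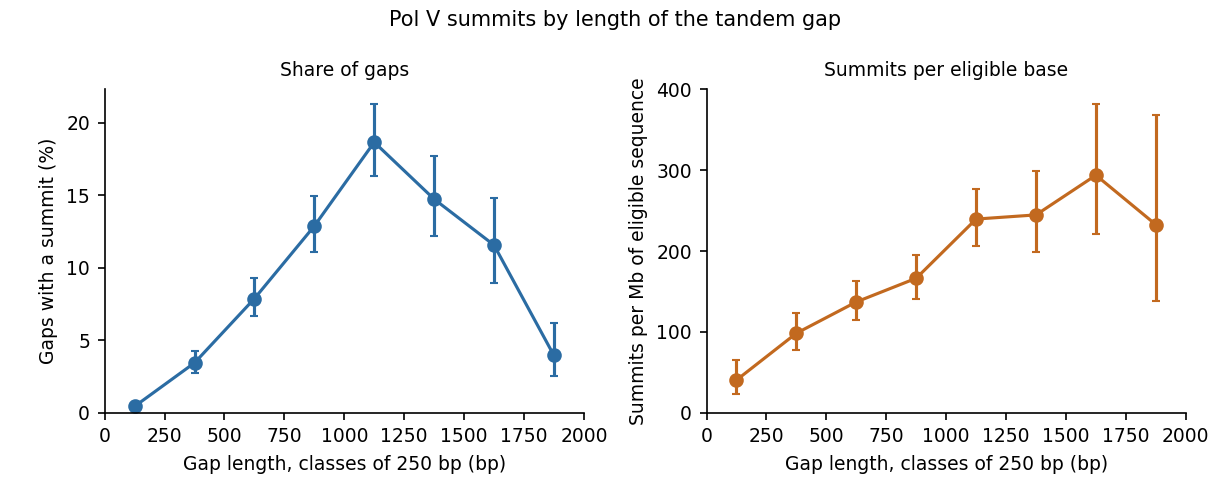
Share of gaps with a Pol V summit (left, %, with 95% Wilson intervals) and summits per Mb of eligible sequence (right, with 95% exact Poisson intervals) in gap length classes of 250 bp. The share was highest, at 18.7%, in gaps of 1001 to 1250 bp, and the density rose from 40.5 per Mb in the shortest gaps to 239.6 in that class.

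Gaps up to 500 bp had the lowest share in gene-rich and in gene-poor chromosome regions. Bins of 500 kb were put into 5 groups of equal size by their number of genes per Mb. In the group with the fewest genes, 9.16% of the gaps up to 500 bp, 37.0% of those over 500 to 1000 bp and 34.3% of those over 1000 to 1500 bp held a summit. In the group with the most genes these shares were 0.656%, 5.78% and 12.5%. In each of the 5 groups the share was higher in gaps over 500 bp than in shorter ones, with intervals that did not overlap. Longer gaps have more room for a summit, and within these groups the counts were not set against eligible bases. These shares therefore do not show whether short gaps were also less dense in each group. Above 1000 bp the share was higher again in 4 of the 5 groups but not in the one with the fewest genes.

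Density differed by more between these chromosome regions than between chromosomes. Per Mb of eligible sequence there were 546.2 summits (440.3 to 669.8) in the group with the fewest genes, from 92 summits, and then 255.2, 162.8, 113.2 and 103.6 (86.7 to 122.8) in the group with the most, from 133. Upstream-only sequence had 384.5 and 143.4 in the first and the last of these groups. In the group with the fewest genes the tandem gaps were therefore denser than upstream-only sequence (350.5 to 421.0), and in the group with the most genes they were less dense (128.3 to 159.7). Chromosomes 3 and 1 had the lowest densities, 136.1 (113.6 to 161.7) and 147.6 (126.2 to 171.5). Chromosomes 2 and 4 had the highest, 190.1 (159.2 to 225.1) and 186.9 (156.5 to 221.5), and all of these intervals overlapped.

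Within the gaps, summits were sparse next to gene starts and, to a lesser degree, next to gene ends. The median distance was 485 bp to the start of the gene ahead (quartiles 315.5 and 716.5) and 451 bp to the end of the gene behind (244 and 715). Of the 755, 406 (53.8%) were nearer to the end, but the share of eligible bases nearer to an end was not counted. Set against the bases available at each distance, there were 49.8 summits per Mb (35.1 to 68.7) in the last 100 bp before the start, 83.8 (63.0 to 109.3) from 101 to 200 bp and 149.4 (119.2 to 185.0) from 201 to 300 bp. Beyond that the steps of 100 bp held between 191.5 and 250.7 per Mb.

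On the other side, the first 100 bp behind a gene end had 90.04 per Mb (69.5 to 114.8), the next 100 bp 119.6 (94.1 to 149.9) and later steps between 165.0 and 217.2. The interval of the 100 bp before a start lay just below that of the 100 bp behind an end. Upstream-only summits were also sparse next to the start, with 94.8 per Mb in the last 100 bp, 286.8 from 401 to 500 bp and 235.1 from 901 to 1000 bp. Their density was above that of the tandem gaps up to 800 bp and close to it from 801 to 900 bp, with 247.4 against 250.7. As both distances are short in a short gap, the position was also measured as a fraction of gap length. Among 241 summits in 2263 tandem gaps of 500 to 1000 bp with no other gene between, counted in 5 equal sections from the gene behind, 36 lay in the first section, 66 in the second, 75 in the third, 45 in the fourth and 19 in the last. The last section, next to the start of the gene ahead, thus had 7.88% (5.11 to 11.98%) of them and the first 14.9% (11.0 to 20.0%), and these intervals overlapped.

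**Figure D3:**
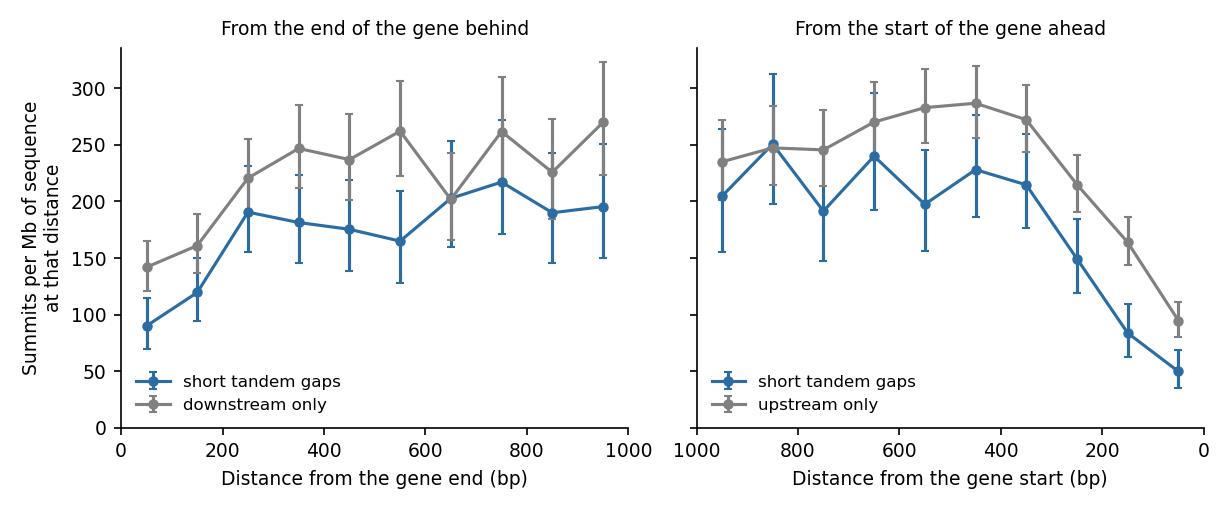
Pol V summits per Mb of the sequence at each distance, in steps of 100 bp with 95% exact Poisson intervals, from the end of the gene behind (left) and to the start of the gene ahead (right), in tandem gaps (blue) and in sequence beside 1 gene only (grey). Tandem gaps went down to 49.8 per Mb in the last 100 bp before a start and to 90.04 in the first 100 bp behind an end.

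The distance limit of the rule cut through a continuous range. The summits just inside it were at position 12310911 of chromosome 1, 997 bp ahead of AT1G33890 (score 335), and at position 423061 of chromosome 2, 999 bp behind PQL3, of the PsbQ-like proteins (score 769). The summits just outside it were 1001 bp ahead of ATPC1, which encodes a subunit of the chloroplast ATP synthase (score 80), and 1001 bp behind AT3G46320 (score 149).

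Peaks in tandem gaps had higher scores than the list as a whole. The score is the peak caller's whole number, has no stated unit and ranks peaks within this list only. The 755 scores ran from 28 to 1396, with a median of 249 (95% interval 215 to 275) and quartiles of 117.5 and 471. A score at or above the median of the list, 169, was found at 474 of them, 62.8% (59.3 to 66.2%), against 50.1% of the whole list. The upstream-only summits had a median of 228 (218 to 246) and a share of 61.0% (59.1 to 62.9%), so these classes overlapped. The downstream-only summits had a median of 191 (180 to 201), the distant ones 158 (152 to 167) and those in genes 116 (109 to 123). The interval of the tandem gaps lay above each of these last 3. Of the 1000 highest scores, 100 belonged to tandem gaps (10%, 8.29 to 12.02%), above their share of the list, 6.58%. Of the 100 highest, 7 did (3.43 to 13.7%), which is close to that share.

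**Figure D4:**
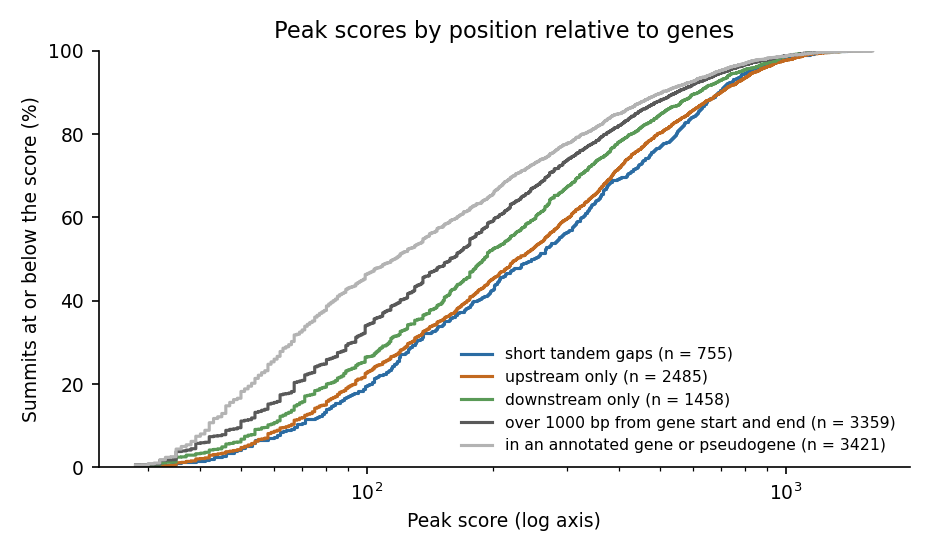
Cumulative share of summits (%) by peak score (log axis) for summits in tandem gaps and in 4 other classes of sequence. The line of the tandem gaps (median 249) runs close to that of upstream-only summits (median 228) and to the right of summits far from genes (158) and in genes (116).

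The score differed somewhat with the distance to the gene ahead and little with that to the gene behind. By distance to the gene ahead, the median was 222 up to 250 bp, 285.5 from 251 to 500 bp, 233.5 from 501 to 750 bp and 178 from 751 to 1000 bp. By distance to the gene behind, the medians lay between 220 and 266. Across the 755 summits, which are not replicates, Spearman's rho between score and distance to the start was -0.08 and between score and gap length -0.11. Between score and the share of unique 50-mers it was 0.14, and between score and GC content within 250 bp 0.15. All of these were weak. Reads that map to several places were dropped by the authors, so a low share of unique sequence can move with a low score, and its part in the scores was not tested.

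Summits that stood alone had higher scores. No other summit lay within 3000 bp of 414 of the 755, and their median score was 313 (269 to 342), while the 341 with a neighbour (45.2%) had a median of 188 (160 to 214). The upstream-only summits differed in the same direction, with medians of 285 and 195. Fewer summits had such a neighbour in tandem gaps than in the whole list, in which 63.4% did, and the median distance to the next summit was 3402 bp against 1857 bp. Of the 2485 upstream-only summits 1419 had such a neighbour, a share between those of the tandem gaps and of the whole list.

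In the 19 gaps with 2 summits, these were between 354 and 840 bp apart. The pair with the highest score lay between SUC9, a sucrose transporter gene, and AT5G06180, with scores of 384 and 214 at a distance of 515 bp in a gap of 1396 bp. SHN2 and SHN3, related AP2-type transcription factors that act on the plant surface, each had such a pair behind their ends, with scores of 299 and 198 behind SHN2 and of 53 and 136 behind SHN3. These genes and NERD, a gene of a protein with a role in RNA-directed DNA methylation whose end was followed by summits of scores 293 and 126, were picked out after their values were seen.

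Summits in tandem gaps sat on a narrow rise in CG sites. Within 150 bp of the summit there were 2.42 ± 1.31 CG sites per 100 bp (SD, n = 755), against 1.91 ± 1.19 at points spaced evenly every 50 bp through the gaps without a summit (n = 82002), while GC content in the same windows was 30.4% ± 5.69 and 31.1% ± 5.25. The spread between single windows was therefore wider than the difference in means. The difference was found at each distance from the gene ahead: 2.57 against 2.17 up to 250 bp, 2.52 against 1.69 from 251 to 500 bp, 2.29 against 1.76 from 501 to 750 bp and 2.30 against 1.85 from 751 to 1000 bp. Points of the same gap share sequence, and no test was made.

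In steps of 50 bp along the gene ahead, the 561 summits in gaps of over 500 to 1500 bp had 2.76 ± 0.117 (SEM) CG sites per 100 bp just before the summit and 2.79 ± 0.123 just after it. The middles of 3777 gaps of the same lengths without a summit had 1.70 ± 0.0342 and 1.69 ± 0.0327. From 201 to 250 bp before the summit the values were 1.72 ± 0.0922 and 1.84 ± 0.0350, so most of the rise lay within 100 bp on each side. GC content, at 31.2% ± 0.407 just before the summit and 30.01% ± 0.140 at the middles, rose less, and from 101 to 150 bp before the summit it was 28.5% ± 0.392 against 30.8% ± 0.142.

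The same rise was present at upstream-only summits, with 2.48 ± 0.0514 CG sites per 100 bp just after the summit and 1.78 ± 0.0470 from 201 to 250 bp before it. It differed little with peak strength: in 4 groups of about equal size from the lowest to the highest scores, the 755 summits had 2.35 ± 1.29, 2.35 ± 1.28, 2.46 ± 1.33 and 2.53 ± 1.36 (SD) per 100 bp within 150 bp. Cytosines in the other contexts, counted on both strands of 300 bp windows, came to 3.50 ± 1.98 per 100 bp for CHG and 21.9 ± 4.31 for CHH, against 3.10 ± 1.76 and 23.5 ± 3.68 at the middles of gaps without a summit.

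**Figure D5:**
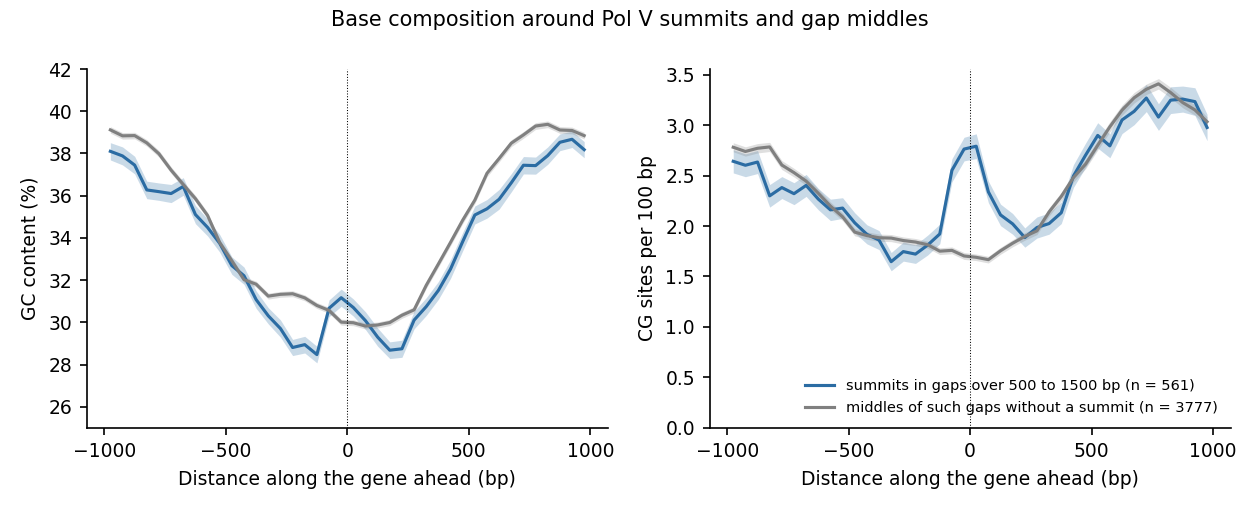
GC content (left, %, axis from 25 to 42) and CG sites per 100 bp (right) in steps of 50 bp around 561 summits in gaps over 500 to 1500 bp (blue) and around the middles of 3777 such gaps without a summit (grey), with distance along the direction of the gene ahead and bands of 1 SEM. CG sites rose to 2.79 per 100 bp at the summit against 1.69 at the middles.

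Short promoter and termination motifs were searched in the 300 bp around each summit, on both strands and with overlaps allowed. The letters TATAAA, of the TATA box, were found in 57.2% of the windows (53.7 to 60.7%), in 46.9% of the windows of all summits and in 52.2% of all promoters (250 bp before to 50 bp after the gene start, from the same genome). AATAAA, the letters of the polyadenylation signal, were found in 67.02%, 58.4% and 64.7%. Upstream-only summits had 56.2% and 68.0%, close to the tandem gaps. At the middles of gaps over 500 to 1500 bp without a summit the shares were 52.9% (51.3 to 54.5%) and 63.2% (61.6 to 64.7%), and the intervals overlapped those of the tandem gaps. Motifs bound by transcription factors in many promoters were less frequent at the summits than in promoters. CACGTG, the G-box, was found in 2.25% (1.41 to 3.58%) against 7.68% of promoters, GGCCCA, letters of a site bound by TCP factors, in 5.96% (4.48 to 7.88%) against 15.5%, and AAACCCTA, of the telo-box, in 3.05% (2.04 to 4.53%) against 6.22%. At the middles of the gaps over 500 to 1500 bp without a summit, these last 3 shares were 4.02% (3.44 to 4.70%), 5.61% (4.92 to 6.39%) and 3.04% (2.54 to 3.64%). Against those middles the shares of GGCCCA and AAACCCTA at the summits overlapped, and that of CACGTG overlapped them by a small margin.

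Many tandem genes are copies of each other, and 147 of the 755 summits lay between genes whose proteins were alike, taken as at least 30% identity over at least 50% of the shorter protein. This limit also took in weak partial matches, such as IAA28 and GA3 (30.9% over 62.9%), so not every such pair need be copies. Gaps with a summit had such a pair in 19.8% of cases (17.1 to 22.9%) and gaps without one in 16.2% (15.5 to 16.9%). The share of such pairs differed with gap length, and among gaps over 500 to 1500 bp the shares were 20.8% (17.6 to 24.4%) and 22.6% (21.3 to 23.9%), so the intervals overlapped at like lengths. Scores were close as well, with a median of 249 in gaps between alike proteins and 248.5 in the other gaps.

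Some pairs of copies with strong summits between them, picked out after their values were seen, were enzymes and regulators. CYCA3;3 and CYCA3;4, A-type cyclins of the cell cycle with 72.0% identity, had a summit with a score of 823. AOC1 and AOC2, allene oxide cyclases of jasmonate synthesis with 89.3% identity, had one of 712, and MLP31 and MLP28, MLP-like proteins with 85.4% identity, one of 695. DES1 and CYSD2, of the cysteine synthase family (86.7% identity), had a score of 648, CYP705A30 and CYP705A32, cytochromes P450 (86.6%), one of 646 and GA3OX2 and GA3OX4, gibberellin 3-oxidases that make active gibberellins (56.8%), one of 633. The closest copies, AT3G24880 and AT3G24870 with 98.7% identity, had a score of 203, and only 35.7% of the 50-mers around that summit were unique, the lowest share of all 755. Elsewhere the sequence was mostly unique, with at least 90% unique 50-mers at 695 summits (92.1%). The mean share of unique 50-mers was 97.9% over the 755 and 97.7% over the whole list.

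By gene family, no count of gaps with a summit could be told apart from the number that gap length alone would give. Families were found by words in the product names, and beside each count stands the number that the share of each length class would give over the same gaps. For every family searched, on either side, that number lay inside the Wilson interval of the count. Many counts were small and had wide intervals, so this does not show that they were close to those numbers. Genes of protein turnover come first. F-box proteins select the substrates of ubiquitin ligases. F-box genes were ahead of 28 gaps with a summit out of 321 (8.72%, 6.10 to 12.3%, 24.5 from the lengths) and behind 25 of 280 (22.9 from the lengths). Of the F-box genes ahead, AT1G49790 had the highest score, 849. Genes named for ubiquitin were ahead of 15 of 181 (8.29%, 11.3 from the lengths), with the highest score, 930, ahead of UPL5, a ubiquitin ligase that acts in leaf senescence. The gene behind that summit was CPR1, an F-box gene that keeps immune receptors low. The ubiquitin-like ATG8D, of autophagy, led the genes behind, which had 10 of 160 (10.3 from the lengths), with a score of 728 between it and PGR5.

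Genes of signalling and defence were near or below the numbers from gap length. Kinase genes were ahead of 30 of 572 (5.24%, 3.698 to 7.39%, 36.1 from the lengths) and behind 32 of 609 (38.6 from the lengths). Disease resistance genes were ahead of 7 of 94 (5.90 from the lengths), led by AT5G45000 with a score of 398, and behind 4 of 86 (6.61 from the lengths), led by AT5G35450 with 507. Defensin genes were ahead of 6 of 97 (9.35 from the lengths) and behind 8 of 71 (6.96 from the lengths). LCR62, a small cysteine-rich defensin-like gene, had the highest score among the genes behind, 469.

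Genes of transcription factors and other regulators followed. MYB genes were ahead of 7 of 47 gaps (14.9%, 7.41 to 27.7%), the highest share of the families searched, with 4.42 from the lengths, and behind 3 of 58 (5.17%, 4.81 from the lengths). MYB119 had the highest score among them. MADS genes were ahead of 3 of 41 (3.45 from the lengths) and behind 3 of 40 (3.696 from the lengths). Among them AGL30, a MADS gene expressed in pollen, was followed by a summit with a score of 836 in the gap before MED8, of the Mediator complex. Homeobox genes were ahead of 4 of 61 (4.54 from the lengths), led by RLT2, a partner of chromatin remodellers, with a score of 817. Homeobox genes were behind 2 of 64 (3.71 from the lengths). Zinc finger genes, a name that covers transcription factors and proteins of other kinds, were ahead of 13 of 183 (12.6 from the lengths), led by DOF4.5 with 885, and behind 6 of 190 (3.16%, 1.46 to 6.72%, 11.5 from the lengths).

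Genes of metabolism had moderate counts and some high scores. Cytochrome P450 genes were ahead of 7 of 120 (8.27 from the lengths) and behind 12 of 127 (8.07 from the lengths), and the summits ahead of the former had a median score of 509. A summit with a score of 768 lay 69 bp behind CYP72A13, in a gap of only 74 bp. UDP-glycosyltransferase genes were ahead of 3 of 69 (4.71 from the lengths), led by UGT78D1, which glycosylates flavonols, with a score of 977, and behind 1 of 61 (4.15 from the lengths). Peroxidase genes were ahead of 1 of 35 (2.57 from the lengths) and behind 1 of 39 (2.44 from the lengths).

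Genes of basic cell functions gave counts on either side of those from gap length. Ribosomal protein genes were ahead of 7 of 158 (6.30 from the lengths) and behind 3 of 145 (2.07%, 0.706 to 5.91%, 7.77 from the lengths). Histone genes were ahead of 3 of 50 (2.59 from the lengths) and behind 0 of 49 (2.16 from the lengths), which allows a share of up to 7.27% by the Wilson interval. Pentatricopeptide genes, which act on organelle RNA, were ahead of 8 of 126 (4.83 from the lengths) and behind 2 of 106 (4.66 from the lengths). Genes of tRNA bordered 11 of 296 (11.8 from the lengths) and small nucleolar RNA genes 0 of 32 (1.68 from the lengths), with an upper limit of 10.7%. Genes of uncharacterized proteins were ahead of 84 of 1089 (7.71%, 6.27 to 9.45%, 72.7 from the lengths) and behind 95 of 1093 (8.69%, 7.16 to 10.5%, 81.0 from the lengths).

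Genes of DNA methylation and small RNA pathways were looked up as a list of 40, of which 12 had a tandem gap before the start and 12 behind the end. Of the gaps before a start, 3 held a summit and of those behind an end 0. DCL3, the Dicer that makes the small RNAs of RdDM, had a summit 329 bp ahead of its start with a score of 405. NRPE1, the largest subunit of Pol V itself, annotated as NRPD1B, had one at 518 bp with a score of 227. DRD1, the chromatin remodeller of the DDR complex, had one at 747 bp with a score of 128. The last of these scores was below the median of the list, and 3 of 12 gaps is too few to set against the 6.39% of all gaps. The gaps of these 3 genes were 697, 1120 and 1455 bp long. DML3, a DNA demethylase gene with a gap of 1057 bp ahead of its start, and IDN2, an RNA-binding RdDM protein with one of 535 bp, had no summit there, and the other 7 gaps before starts were 375 bp long or shorter.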

How the data were processed

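The deposited list gave 1 score per Pol V summit, a whole number from the peak caller made by the authors, whose unit is not named. Per the study's methods and processing notes, the authors aligned published Pol V and no-antibody reads to TAIR10 with Bowtie 1.0.0 (unique reads, at most 2 mismatches), removed duplicates with SAMtools 0.1.19, called peaks with MACS2 (q-value 0.05) and retained those above 2-fold enrichment. Dropping reads that map to several places removes signal from repeats, and the list keeps no peak widths or read counts, so the depth behind a peak is unknown.

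Positions (1-based) were set on the RefSeq TAIR10.1 annotation with its 27444 protein-coding genes, and all 11478 summits fell inside the chromosomes. The list's 1 blank record was left out, and 0 other columns of values were unused. The rule was applied at 1000 bp to every summit and every determined base. GC content was taken within 250 bp, CG sites within 150 bp, motifs in 300 bp, and mappability as the share of 50-mers found once in the genome. Flanking proteins were translated from the annotation and aligned locally (BLOSUM62, gap scores -11 and -1). Shares have 95% Wilson intervals, densities exact Poisson intervals and medians order-statistic intervals. There are no replicates and no tests. The placement of positions was checked against a direct search of distances at 10000 positions, with 0 wrong. Python 3.11.15, NumPy 2.4.6, SciPy 1.17.1 and Biopython 1.88 were used.

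Genes were named by a rule: the 12 highest scores, of which 1 is not reported here, genes of the DNA methylation list, the gaps with the most summits, the shortest and longest gaps, the summits at the distance limit, and the highest score of each family among the summits reported. Pairs of alike genes were picked by hand among those with high scores and gene symbols, after their values were seen, as were the closest copies. The summits, lists and rules were chosen with earlier results of these data known. Alternatives were a score minimum, windows of 500 and 2000 bp, merged summits, other gene sets, a mappability minimum of 90%, other windows for GC, means and a stricter identity.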

Additional observations from a re-analysis of the deposited data

How the results depend on the processing

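Each alternative changed which summits were taken or how they were summarised, and the cause of a change was not tested beyond that construction. With only summits of a score at or above the list median, 474 remained by construction, at 102.8 per Mb, with a summit in 4.08% of gaps, a median score of 384, a mean GC content of 30.4% and a median distance of 463 bp to the gene ahead. A window of 500 bp gave 225 summits, 123.1 per Mb, 2.78% of gaps, a median score of 309, 30.8% GC, a median distance of 319 bp and alike flanking proteins at 14.2% of gaps with a summit. A window of 2000 bp gave 1950 summits (17.0% of the list), 193.1 per Mb, 10.9% of gaps and a median distance of 748.5 bp. Merging summits within 1000 bp gave 148.8 per Mb, 5.96% of gaps and a median score of 282. GC content within 100 bp was 30.9%, the mean score 321.6, and 16.0% of gaps had alike proteins at 50% identity. Gaps barred only by protein-coding genes gave 787 summits (6.86% of the list). Gaps with no other gene between gave 647 (5.64%), and a minimum of 90% unique 50-mers gave 695 (6.06%). The shares of 5.64% and 6.06% lay below the interval of the main share, 6.14 to 7.05%. Under all of these settings every other computed value moved by less than its spread or interval. The 647 were counted with the gene pair set at the middle of the eligible bases, and the 645 of the report with the pair set at the summit. Without replicates, the spread between ChIP-seq experiments is unknown.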
